A study of Mus musculus with 6 samples.

Results

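Mural cells are the contractile cells that wrap blood vessels. Smooth muscle cells ring arteries, arterioles and larger veins and set their width, whereas pericytes sit on capillaries and small venules and hold the endothelium in place. The choroid, the vascular layer that feeds the retinal pigment epithelium (RPE) and the photoreceptors, is rich in both. Smooth muscle contracts when calcium and calmodulin switch on the kinase that phosphorylates myosin light chains, after which smooth muscle myosin pulls on actin filaments. Pericytes are recruited by platelet-derived growth factor (PDGF) B from the endothelium, and Notch signals from the endothelium keep smooth muscle cells differentiated.

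The genes described here are 10 mural cell genes, found by their symbols among the 33924 gene symbols of the deposited RPE/choroid table. All 10 were found. They fall into 6 genes of the contractile apparatus (Acta2, Myh11, Tagln, Cnn1, Lmod1 and Smtn) and 4 genes of surface receptors and signalling (Pdgfrb, Cspg4, Rgs5 and Notch3). Their function named them, though with earlier results of these data known.

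RNA was sequenced from RPE/choroid of wild-type C57BL/6J mice with no treatment, in 3 libraries from young and 3 from aged animals. According to the labels the young mice were 1 to 2 months old. For the aged mice the sample titles and the time field disagree, with 20 to 24 and 22 to 24 months. Sex is given as male, but in the study's methods females also appear and the young group is somewhat older, so age and sex are uncertain. Tissue of a pair of eyes went into each library, the neural retina was taken off, and the pigmented layer with the choroid was scraped from the sclera, so each library is a mixture of cell types and vessels of every size. Ribosomal RNA was depleted, with no selection for poly(A) tails.

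For each gene the table gives 1 mean over the 6 libraries, named baseMean, in normalized counts. It was the only column used, because the others hold the authors' comparison of young with aged tissue. No value per library was analysed here. The depth of each library and the spread between mice therefore could not be computed. Young and aged tissue are not compared here, since the authors' comparison was left unused and no independent one can be made from a pooled mean, and every level below is the authors' pooled mean without an error. In bulk tissue, fewer mural cells and less RNA per mural cell cannot be told apart.

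Rgs5 was the most abundant of the 10 genes, and the contractile genes spread from among the most abundant transcripts of the tissue down to its middle. The values that follow are not divided by length. The pooled mean of Rgs5 was 21346 normalized counts, which placed it at rank 57 of the 26681 genes with a value above 0. Pdgfrb followed with 4839, Acta2 with 3453 and Myh11 with 3145. Notch3 stood at 1796, Tagln at 1780 and Cspg4 at 1374. The remaining contractile genes were lower, with 570 for Smtn, 348 for Lmod1 and 106 for Cnn1. Of the genes above 0 in the tissue, 99.8% lay below Rgs5 and 52.3% lay below Cnn1. The 10 genes together summed to 38758 normalized counts, 0.202% of the 19192071 of all genes, and Rgs5 alone made up 55.1% of the members' sum.

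Levels of different genes were then compared per length. The pooled mean rose with transcript length across genes, from a median of 283 normalized counts in the shortest of 4 equal length classes to 907 in the longest, with a Spearman correlation of 0.28 with transcript length and 0.18 with coding length over 15157 genes, so the deposited values were taken as not divided by length. The study's methods name TPM, a measure that is already per length, as the step before, so this is an inference, and if length had been removed the undivided values above would be the ones to compare. Each level was divided by the coding length of the gene in kilobases (kb), and as an alternative by its transcript length. Per coding kb the order was Rgs5 (39311), Acta2 (3053), Tagln (2951), Pdgfrb (1462), Myh11 (530), Notch3 (258), Smtn (201), Cspg4 (197), Lmod1 (195) and Cnn1 (119). Per transcript kb all 10 genes kept the same place. Without division by length only 3 of 10 did, and Pdgfrb and Myh11, which have long transcripts, then stood above Tagln, which has a short one.

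**Figure D1:**
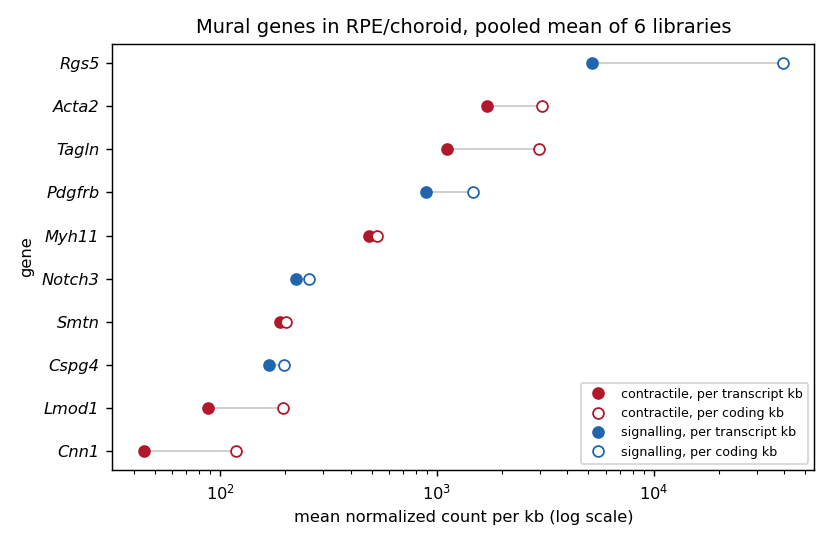
Pooled mean of the 6 libraries for each of the 10 mural genes, in normalized counts per kb on a log axis, with filled points per kb of transcript, open points per kb of coding sequence, red for contractile and blue for signalling genes. Rgs5 is highest and Cnn1 lowest on either scale, and the gap between the points is widest for Rgs5 (5211 and 39311), whose coding part is short.

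The lead of Rgs5 was present on every scale, but its size was not. Per coding kb Rgs5 lay 12.9 times above Acta2, the next gene, and per transcript kb 3.07 times. The coding part of Rgs5 is 543 bases of a transcript of 4096 bases, 13.3%, the lowest share among the 10 genes, and in total RNA reads fall on the untranslated parts as well. Several neighbours in the order were close to each other. Acta2 exceeded Tagln 1.03 times per coding kb and 1.52 times per transcript kb, and per coding kb Smtn exceeded Cspg4 1.02 times and Cspg4 exceeded Lmod1 1.01 times. Per transcript kb these last factors were 1.12 and 1.92, so how close they are depends on the length used. Without the spread between libraries, whether such neighbours differ could not be tested.

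Acta2 encodes smooth muscle alpha-actin, the thin filament protein that defines contractile mural cells. The gene (ENSMUSG00000035783.9) lies on the minus strand of chromosome 19, at chr19:34241090-34255590 of GRCm38, and its transcript of 2035 bases has 9 exons. Its level was 3053 normalized counts per coding kb and 1697 per transcript kb, and 96.8% of the 18356 genes with a length lay below the latter. Vertebrate actins are nearly identical proteins, so the transcript was searched for stretches of 31 bases that also occur in transcripts of other genes, where a fragment of that length could not be assigned. No such stretch was shared with the other 3 muscle actins, Actg2, Acta1 and Actc1, whereas 26 of the 2005 in Acta2 also occurred in Actg1 and 17 in Actb, the cytoplasmic actins. In all, 98.5% of the stretches of Acta2 were found in no other gene. The longest identical runs with Actg2 and Actc1 are printed here because they show how long a fragment must be to tell these genes apart. Both are coding, on the minus strand of chromosome 19 of GRCm38. The run with Actg2 is in exon 7 (chr19:34245055-34245083), and the run with Actc1 joins exon 8 (chr19:34243317-34243337) to exon 9 (chr19:34241809-34241810). The first has 29 bases and the other 23.
Acta2 and Actg2: gacatcaaggagaagctgtgctatgtagc
Acta2 and Actc1: cccagcaccatgaagatcaagat

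The other muscle actins had very different levels. Actg2, the enteric smooth muscle actin, had a pooled mean of 39.4 normalized counts, and Acta2 exceeded it 87.3 times per coding kb and 57.3 times per transcript kb. Acta1, the skeletal muscle actin, had 17441 normalized counts, 5.05 times Acta2 per coding kb. Actc1, the cardiac actin, had 659. Actb and Actg1, found in nearly every cell type, had 30341 and 2421, but only 64.9% and 42.9% of their stretches of 31 bases occurred in no other gene, so these levels are uncertain. The authors' reads were paired and, before trimming, longer than 31 bases. Shares of such stretches therefore do not give the share of reads that fit several genes.

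CArG boxes are the sites at which serum response factor (SRF) binds in the promoters of contractile genes. The pattern searched was CC, then 6 bases that are A or T, then GG, which reads alike on both strands, from 250 bases before to 50 after each start in the RefSeq promoter table (GRCm38.p6). The table held 7 of the 10 genes and lacked Myh11, Tagln and Pdgfrb. An exact match was present in 0 of these 7 windows and in 1.63% of all 32851 windows. With 1 mismatch allowed among the A or T positions, 1 of the 7 windows had a match, against 9.98% of all windows. That window was the one of Acta2, which held 2 matches; at least 2 were present in 0.822% of all windows. Both are printed, with 10 bases on each side and the match in capitals, since they are the only ones in the windows of the mural genes. They begin 84 and 34 bases before the RefSeq start, 50 bases apart, and the printed windows lie at chr19:34255438-34255467 and chr19:34255388-34255417 on the minus strand. The GENCODE transcript starts 217 bases further upstream than RefSeq, which puts both matches in the 5′ UTR of its exon 1 (chr19:34255290-34255590), so the annotations differ on whether they precede the transcript.
Acta2, match 1: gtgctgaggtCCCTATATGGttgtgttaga
Acta2, match 2: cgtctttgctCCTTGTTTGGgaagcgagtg

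Other motifs were counted in the same 7 windows on both strands. TATAAA, the core of a TATA box, was in none of the 7 and in 13.6% of all windows. TGGGAA, the core bound by the Notch effector RBPJ, was in 2 of 7 (Acta2 and Smtn) and in 25.6% of all windows, and in Acta2 it overlaps the end of match 2. GGGCGG, a GC box, was in 4 of 7 (Lmod1, Smtn, Cspg4 and Notch3) and in 35.7% of all windows. The window of Smtn (chr11:3539243-3539542, minus strand) lies wholly inside the gene as GENCODE places it (chr11:3517523-3540612). The GENCODE start of the gene is therefore outside that window. A match is a description of the letters in these windows and does not show that a factor binds there.

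Myh11 encodes the heavy chain of smooth muscle myosin, the motor of the contractile cell. It lies at chr16:14194535-14291372 of GRCm38 on the minus strand, with 42 exons in its longest coding transcript. Its level was 530 normalized counts per coding kb and 488 per transcript kb, and 84.2% of genes lay below the latter. The nonmuscle heavy chain Myh9, present in most cell types, had 12761 normalized counts against 3145 for Myh11, 4.1 times as much per coding kb. Myh10, the other nonmuscle chain compared, had 1906, and Myh11 exceeded it 1.68 times per coding kb. Of the stretches of 31 bases in Myh11, 64 also occurred in Myh9 and 42 in Myh10, and 98.9% occurred in no other gene.

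Tagln encodes transgelin, also named SM22-alpha, an actin-binding protein of early smooth muscle differentiation. It lies at chr9:45929619-45936058 of GRCm38 on the minus strand and has a short coding part of 603 bases. Tagln reached 2951 normalized counts per coding kb and 1116 per transcript kb, with 94.3% of genes below the latter. It exceeded Tagln2 1.91 times per coding kb and Tagln3, which is best known from neurons, 5.86 times. On the opposite strand the gene overlaps the antisense gene Gm48529 by 3627 bases, for which no level was used here, and Pcsk7 by 108 bases, with 604 normalized counts for Pcsk7. Overlaps are given here over whole gene spans, introns included, and the overlap of the transcripts alone was not measured. Whether strand was used in counting is not known here, so reads from a part that both transcripts hold may have gone to either gene.

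Cnn1, Lmod1 and Smtn are genes of mature contractile smooth muscle, and they were the lowest contractile genes of the 10. Cnn1 encodes calponin, which slows the actomyosin cycle, and lies at chr9:22099216-22109630. Its level was 119 normalized counts per coding kb and 44.7 per transcript kb, so that 35.7% of genes lay below the latter. Lmod1 encodes leiomodin, which starts new actin filaments, and lies at chr1:135324807-135368065. Lmod1 had 195 normalized counts per coding kb and 88.2 per transcript kb. Smtn encodes smoothelin, a protein of fully contractile cells, and lies at chr11:3517523-3540612, with 201 normalized counts per coding kb and 189 per transcript kb. The median over all genes was 214 per coding kb and 108 per transcript kb, so Cnn1 and Lmod1 lay below it on both scales, while Smtn lay below it per coding kb and above it per transcript kb. The span of Smtn also overlaps that of Gm11946 on the opposite strand by 6700 bases, and Gm11946 had 80 normalized counts. Whether reads of the overlap were counted for Smtn was not tested.

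The families of these genes did not share one pattern. Cnn2 and Cnn3, calponins of many nonmuscle cells, had 2380 and 6745 normalized counts against 106 for Cnn1, which is 21.8 and 57.1 times as much per coding kb. By contrast, Lmod2 and Lmod3, the striated muscle leiomodins, had 162 and 163, and Lmod1 exceeded them 1.99 and 2.06 times per coding kb. Per transcript kb these factors fell to 1.08 and 1.2. Smtnl1 and Smtnl2 had 307 and 389, somewhat above Smtn per coding kb (1.11 and 1.41 times) and somewhat below it per transcript kb (0.924 and 0.784 times), so their order against Smtn depends on the length used.

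**Figure D2:**
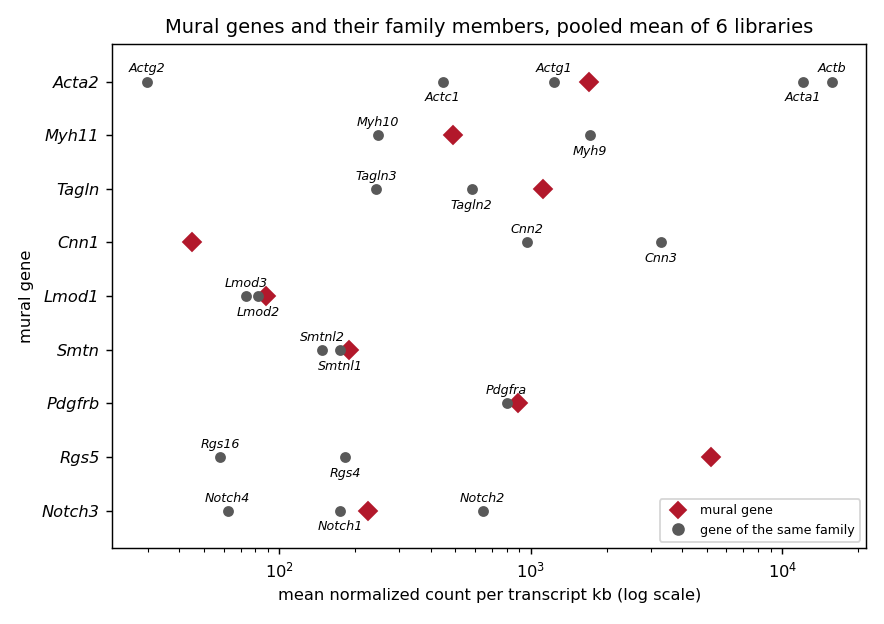
Pooled mean of the 6 libraries in normalized counts per kb of transcript, on a log axis, for 9 mural genes (red diamonds) and the genes of the same family (grey points). Cnn1 lies far to the left of Cnn2 and Cnn3 and Rgs5 far to the right of Rgs4 and Rgs16, whereas Lmod1, Smtn and Pdgfrb lie close to theirs.

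Rgs5 encodes a regulator of G protein signalling that dampens the response of mural cells to vasoactive receptors, and it is widely used as a pericyte marker. It lies at chr1:169655501-169695813 of GRCm38 on the plus strand. It had 39311 normalized counts per coding kb and 5211 per transcript kb, and 99.4% of genes lay below the latter. Rgs4, also used as a mural marker, had 534 normalized counts, and Rgs5 exceeded it 45.3 times per coding kb and 28.7 times per transcript kb. Rgs16 had 136, and Rgs5 exceeded it 174 times per coding kb. Of the stretches of 31 bases in Rgs5, 99.9% occurred in no other gene.

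Pdgfrb encodes the receptor for PDGF-B, through which the endothelium recruits pericytes. It lies on the plus strand of chromosome 18, at 61045150 to 61085061 of GRCm38, and had 1462 normalized counts per coding kb and 892 per transcript kb. Pdgfra, a receptor of fibroblasts and other mesenchymal cells, had 5470 normalized counts against 4839 for Pdgfrb. It was 1.14 times Pdgfrb per coding kb and 0.897 times per transcript kb, so these data do not order the receptors. Among the ligands, Pdgfd (996 normalized counts) and Pdgfa (633) were highest, also per transcript and per coding kb, and Pdgfb, the recruiting ligand, which was named for its role after the values were seen, had 592. Per coding kb the level of Pdgfb was 818, below that of Pdgfrb.

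Notch3 encodes the Notch receptor that marks arterial smooth muscle and pericytes, and Cspg4 encodes NG2, a surface proteoglycan of pericytes. Notch3 lies at chr17:32120820-32166852 on the minus strand and Cspg4 at chr9:56865033-56899870 on the plus strand of GRCm38. Notch3 had 258 normalized counts per coding kb and 224 per transcript kb, and Cspg4 had 197 and 169. Notch2 was the highest of the Notch receptors, with 6753 normalized counts, 3.52 times Notch3 per coding kb. Notch3 exceeded Notch1 1.19 times and Notch4, an endothelial receptor, 3.71 times per coding kb. The span of Notch3 overlaps that of Gm17276 on the opposite strand by 21024 bases, and Gm17276 had 15.6 normalized counts. Whether reads of this overlap were counted for Notch3 was not tested.

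Taken by role, the 4 signalling genes held the larger part of the members' sum on every scale while all 10 genes were counted. The contractile genes made up 24.3% of the summed pooled mean, 14.6% of the sum per coding kb and 35.8% of the sum per transcript kb. Without the most abundant gene of each group, Rgs5 and Acta2, the contractile share was 42.6% of the summed pooled mean, but 67.6% per coding kb and 60% per transcript kb. Which group held most of the remaining sum therefore turned with the division by length. The median level per transcript kb was 338 for the contractile genes and 558 for the signalling genes, and per coding kb it was 365 and 860. Over all 18356 genes with a length it was 108 per transcript kb and 214 per coding kb.

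The wider lists describe the rest of the mural programme, and none of their genes was listed at 0. For each list the highest genes by the undivided pooled mean are named, and, where they differ, those that lead per transcript kb, which were added after the values were seen. The 30 other genes of smooth muscle contraction had a median of 452 normalized counts per transcript kb, compared with 356 for the 10 genes, and of 758 per coding kb, compared with 394. Undivided by length, Flna (20191 normalized counts), an actin crosslinker of most cell types, and the tropomyosins Tpm1 (15171) and Tpm2 (10428) were highest. Per transcript kb the leaders were Tpm1 (8317), the myosin light chain Myl6 (5839) and Tpm2 (4794), with Flna at 2429. Mylk, the kinase that starts contraction, had 4544 normalized counts undivided and its substrate Myl9 had 2487. The lowest on every scale were the smooth muscle genes Kcnmb1 (14.2 normalized counts undivided), a subunit of the calcium-activated potassium channel, Actg2 (39.4) and Ppp1r14a (41.8), an inhibitor of myosin phosphatase. Several genes of this list are also expressed in skeletal muscle or in nonmuscle cells. Mylk, Myl9, Ppp1r14a and Kcnmb1 were picked for the text after their values were seen.

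The 6 genes of the SRF axis, which drives contractile genes, had a median of 142 normalized counts per transcript kb and 282 per coding kb. Mkl2 (1238 normalized counts undivided), Fhl2 (688) and Srf (550) were the highest 3 on every scale, with Fhl2 first per kb. Myocd, the SRF cofactor of smooth and cardiac muscle, was lowest with 29.2, and it too was picked after its value was seen. The 16 other pericyte genes had a median of 207 per transcript kb, below the 356 of the 10 genes, but of 447 per coding kb, above their 394, so their place depends on the length used. Undivided, Angpt1 (3792 normalized counts), the ligand of the endothelial receptor Tek, Abcc9 (2767), a potassium channel subunit, and Vtn (1883), vitronectin, were highest. Per transcript kb Vtn (1080), Angpt1 (890) and the adhesion molecule Mcam (462) led, and Abcc9 had 379. None of the 16 reached Rgs5 on any of the scales.

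The 13 other Notch genes had a median of 95.3 normalized counts per transcript kb and 320 per coding kb. Undivided, Jag1 (2051 normalized counts), a ligand, and the receptor Notch1 (1649) followed Notch2. Per transcript kb the Notch target Hes1 (634) lay next to Notch2 (643), above Jag1 (365). The 12 genes of vascular tone had a median of 123 per transcript kb and 315 per coding kb. Ednrb (12711 normalized counts undivided), an endothelin receptor that melanocytes and endothelium also carry, Itpr1 (9068), a calcium release channel, and Gucy1a3 (2326), a subunit of the nitric oxide receptor, were the highest 3 on every scale. The median of the 5 other PDGF genes was 410 per transcript kb and 898 per coding kb, above that of the 10 genes on both. Undivided it was 633, below the 1788 of the 10 genes, so this order turns with the division by length.

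**Figure D3:**
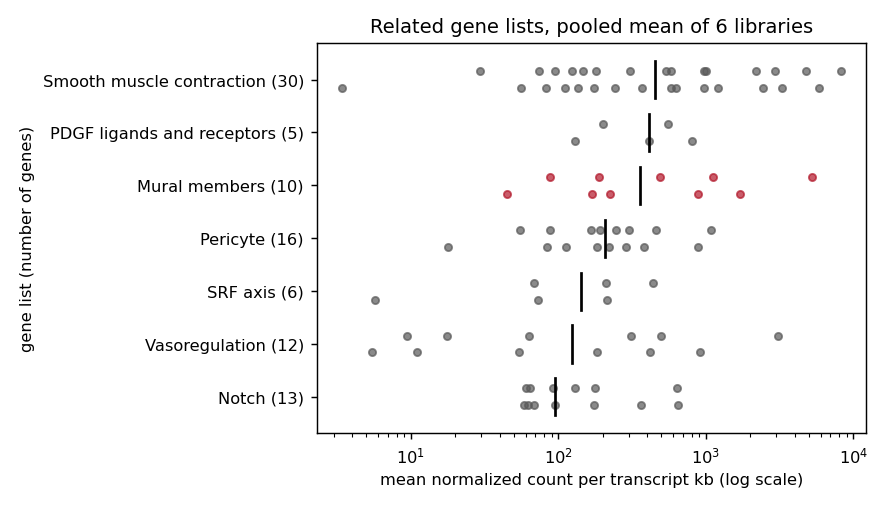
Pooled mean of the 6 libraries in normalized counts per kb of transcript, on a log axis, for the genes of 6 related lists (grey) and the 10 mural genes (red), each point 1 gene and each black line the median of its list. The medians run from 95.3 for the Notch genes to 452 for the smooth muscle contraction genes, with the 10 mural genes at 356.

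Other cell types of the tissue were measured beside the mural genes by their own markers, with medians per transcript kb. RPE markers had a median of 14034 normalized counts per transcript kb, and Ttr (99321 normalized counts) and Rgr (92190) were highest undivided by length. Per transcript kb Ttr (83745) and Rpe65 (23481) led. Melanocyte markers had a median of 21830, with Dct (89145) and Tyrp1 (59379) highest undivided and Dct (40484) and Pmel (27072) leading per transcript kb. These are pigment genes that the RPE expresses as well, so their level is not one of melanocytes alone. The labelled tissue was thus present by its defining markers, apart from Best1, the RPE chloride channel, which had only 69.8 normalized counts and was picked after its value was seen. Endothelial markers, with which mural genes share the vessel wall, had a median of 812 per transcript kb. Undivided, Kdr (6377 normalized counts) and Emcn (2866) were highest, and per transcript kb Egfl7 (1921) and Plvap (1187). Of the 8 endothelial genes, 7 lay above the mural median of 356 per transcript kb. The range of the endothelial genes, 257 to 1921, lay within that of the mural genes, 44.7 to 5211.

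Markers of 2 other sources of actin and receptor transcripts were high. The 8 skeletal muscle markers had a median of 6667 normalized counts per transcript kb, and all 8 lay above the mural median. Undivided, Myh4 (51830 normalized counts) and Myh1 (18610) were highest, and per transcript kb Mylpf (16179) and Acta1 (12062). Eye muscles had been cut away from the globe. The fibroblast markers had a median of 6392, with Col1a2 (64562 normalized counts) and Col1a1 (45848) highest undivided and Dcn (24704) and Col1a2 (12072) leading per transcript kb. Genes that mural cells share with muscle or with fibroblasts, such as Tpm1, Tpm2 and Des (3662 normalized counts undivided), were measured in this mixture. The part of each cell type in their levels was not tested. The same limit holds for the mural genes described here, since their levels come from the same mixture. Whether the transcripts of these mural genes came from mural cells alone was not tested. Des was picked after its value was seen. Photoreceptor transcripts were present too, although the neural retina had been removed. Sag, rod arrestin, had 13165 normalized counts undivided and 7658 per transcript kb, and Gnat1, rod transducin, had 12334 and 5298, both named after their values were seen.

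Macrophage markers had a median of 864 normalized counts per transcript kb. Csf1r (4063 normalized counts) and Adgre1 (3121), which the table lists under its older symbol Emr1, were highest undivided, and Cd68 (1214) and Adgre1 (964) per transcript kb. Glial markers had a median of 345 per transcript kb, just below the 356 of the mural genes, but of 847 per coding kb, above their 394. Among them Glul (28609 normalized counts undivided) was highest on every scale, followed by Slc1a3 (1136) undivided and by Gfap (417) per transcript kb. Cardiac muscle markers had a median of 34.6, and Actc1 (659 normalized counts undivided) and Myh7 (366) were highest on every scale.

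**Figure D4:**
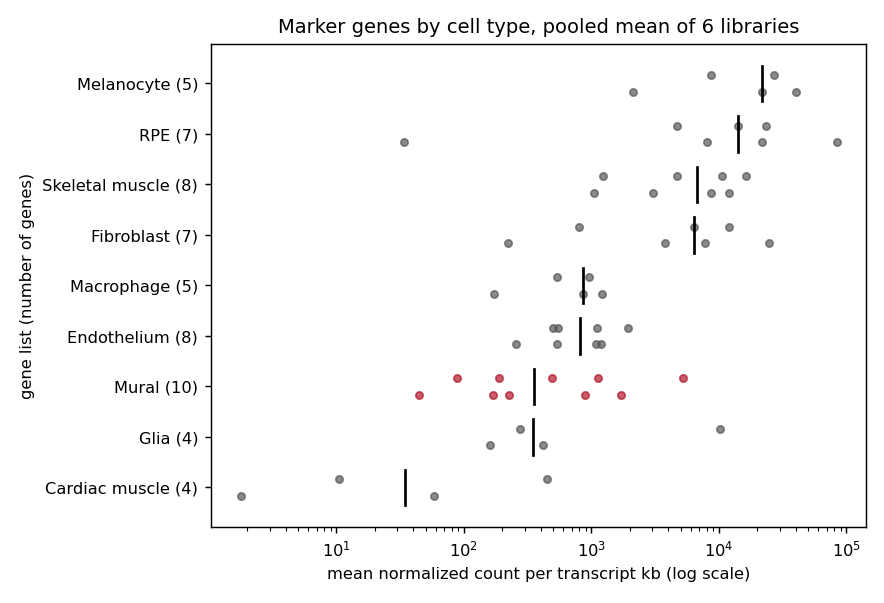
Pooled mean of the 6 libraries in normalized counts per kb of transcript, on a log axis, for marker genes of 9 cell types, each point 1 gene and each black line the median of its list, with the number of genes in brackets. The mural genes (red) spread from 44.7 to 5211 around a median of 356, below the endothelial median of 812.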

How the data were processed

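RPE/choroid RNA from 6 C57BL/6J mice was sequenced by the authors with a stranded kit. The authors trimmed and filtered reads by BBDuk, mapped the reads with STAR to Ensembl transcripts of GRCm38, quantified them as TPM with Sailfish, made normalized counts from these by total count, and ran DESeq2. Whether strand was used in counting is not given in the sources used here, nor how reads that fit several genes were shared. The deposited signal, baseMean, is the authors' mean of normalized counts over the 6 libraries. The other 5 columns hold the fold change, its error, the test statistic, the p-value and the adjusted p-value of the authors' comparison, and were not used. No column names a sample, so the depth of each library could not be computed from the table (the study states only an average), and no test, error or age comparison was made. Where a design with values per library had been planned, it was dropped.

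Levels were ranked among genes above 0 and divided by coding or transcript length, from the GENCODE M21 (GRCm38) transcript with the longest coding part. Coding lengths were to come from RefSeq proteins; GENCODE coding parts were used instead, and a planned comparison of protein sequences was replaced by stretches of 31 bases shared between transcripts. Motifs were searched in RefSeq promoter windows (GRCm38.p6) of 300 bases. The search and ranking functions were tested on simulated data. Python 3.11.15, pandas 2.3.3, scipy 1.17.1 and matplotlib 3.10.9 were used. Genes named are the 10 members, their family members, genes that overlap a member, the 3 highest of each wider list and the 2 highest of each cell type list by undivided baseMean. Added after the values were seen were the leaders per transcript kb of both kinds of list, where they differ, and the genes said to be so picked. A gene most like each member across samples could not be named without values per library. Alternatives tried were other sets of genes to rank among, other lengths, leaving out the highest gene of each group, and a looser motif. The members and lists were chosen with earlier results of these data known. Markers of some other cell types and 1 shared stretch of sequence are not reported here.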

Additional observations from a re-analysis of the deposited data

How the results depend on the processing

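The order of the 10 genes was the same per coding and per transcript kb, but the sizes of the gaps were not. Rgs5 lay 12.9 times above the next gene per coding kb, 3.07 times per transcript kb and 4.41 times without division by length. The contractile share of the members' sum was 24.3%, and it was 14.6% per coding kb, 35.8% per transcript kb, and without the highest gene of each group 42.6% undivided, 67.6% per coding kb and 60% per transcript kb. Both values per transcript kb and the 67.6% were chosen after seeing the data. The median percentage of genes below the 10 members was 90.7% among genes above 0, 86.1% among genes with a pooled mean of at least 10, 92.7% among all symbols and 86.4% among genes with a RefSeq protein. Each of the 10 lay lower in the stricter sets, with the change in percentage points between -23.1 and -0.103 for the first and between -19.6 and -0.082 for the last. Of the 7 promoter windows of the members, the CArG pattern matched 0 exactly and 1 with 1 mismatch, against 1.63% and 9.98% of all windows. No paired analysis was possible because each gene has 1 pooled mean and no library has a column. The planned age comparison was therefore not run, nor was leaving out a library, other pseudocounts or the replicate block. Depth per library, spread between mice and the share of reads from other cell types limit every level and could not be computed from the table.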
